A study of Mus musculus with 6 samples.

Results

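The 10 genes described here encode enzymes of NAD synthesis in mouse kidney: Kmo, Kynu, Haao, Acmsd, Qprt, Naprt, Nadsyn1, Nampt, Nmnat1 and Nmnat3. They were chosen by name as de novo, Preiss-Handler and salvage enzymes, and each matched 1 of the 32285 gene IDs of the read-count table. All 10 passed the filter on low counts, which kept 15955 genes. RNA-seq was made from whole kidneys of 6 mice, described as females of 100 weeks, whose mitochondrial DNA has a mutation in TrnE, which encodes the tRNA for glutamate. The control group held 3 kidneys in which 10%, 5% and 15% of mitochondrial DNA copies carried the mutation (controls 1, 2 and 3). In the 3 kidneys of the high-load group this share was 75%, 75% and 80% (high-load 1, 2 and 3). The controls therefore carry the mutation too, at a low load, and no kidney without it was analysed here. No source used here gives the strain or how the mutation arose.

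NAD is the electron carrier of glycolysis, the TCA cycle and fatty acid oxidation, and sirtuins and PARPs break it down. Cells make it from tryptophan by the kynurenine pathway (de novo synthesis), from nicotinic acid (the Preiss-Handler pathway) and from nicotinamide (salvage). Liver and kidney proximal tubule are the main sites of the de novo pathway, whereas salvage by NAMPT runs in nearly all cells.

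Libraries held 17449270 to 18865997 counts each, and 9 of the 10 genes were lowest in high-load 1. How many of all genes were lowest there was not counted. Control 2 went against the stated sex: it had 3 Xist counts against 14002 to 17028 in the other libraries, and 1276 counts of the Y-linked gene Eif2s3y against 0. It also held 1943 counts of the proximal tubule gene Slc7a13 against 3 to 24 elsewhere. For the 10 genes, and for some of the other genes named below, results are also given without this library. Where no such value is given, the effect of control 2 is not shown. Kidney markers were present in all libraries, and none of the 15 proximal tubule or 12 macrophage and dendritic cell markers was at 0. The summed proximal tubule markers stood at 21650 to 25750 CPM across controls, against 6186 to 17450 CPM in high-load kidneys. The summed macrophage and dendritic cell markers stood at 1020 to 1322 CPM across controls, against 1868 to 3197 CPM in high-load kidneys. CPM is the count of a gene divided by the TMM-scaled size of its library, on the usual scale of that name. The TMM factor was 1.14 in high-load 1 and 0.944 to 0.997 in the other libraries.

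The comparison asks how these transcripts stand in kidneys of high and low mutation load. Transcripts of the middle of the kynurenine pathway (Kmo, Kynu and Haao) and of the nicotinic acid pathway (Naprt and Nadsyn1) were lower in every high-load kidney than in every control. Those of Nmnat1 and Nmnat3, isozymes of the step that all routes share, stood at nearly equal means. None of the 10 genes passed an adjusted p of 0.05 in edgeR's quasi-likelihood test with Benjamini-Hochberg adjustment over all genes, in which 0.0188% of genes were called. At an unadjusted p under 0.05, 3 of the 10 were lower (Kmo, Haao and Naprt), beside 10.2% of all genes tested, and 0 were higher. The 5 genes whose groups did not overlap compare with 15.8% of all genes that were lower in this way. The log2 fold change was below 0 for 9 of 10 genes, beside 49.1% of all genes. Its median over the 10 was -0.46, beside 0.0067 over all genes.

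Without control 2, 9 of 10 log2 fold changes were below 0 (48.5% of all genes), the same 5 genes did not overlap (20.9% of all genes were lower in this way), and 0 reached an unadjusted p under 0.05, which 6.25% of all genes did in that direction. The log2 fold changes without control 2 were -0.85 for Kynu, -0.39 for Acmsd, -0.46 for Qprt and -0.44 for Nadsyn1, and stood at -0.080 for Nmnat1 and 0.017 for Nmnat3. DESeq2 called 1 of the 10 (Haao), beside 3.88% of genes called lower, and limma-voom called 0. Without high-load 1, 7 of 10 log2 fold changes were below 0 (49% of all genes) and 4 reached an unadjusted p under 0.05 (8.09% of all genes were lower in this way).

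**Figure D1:**
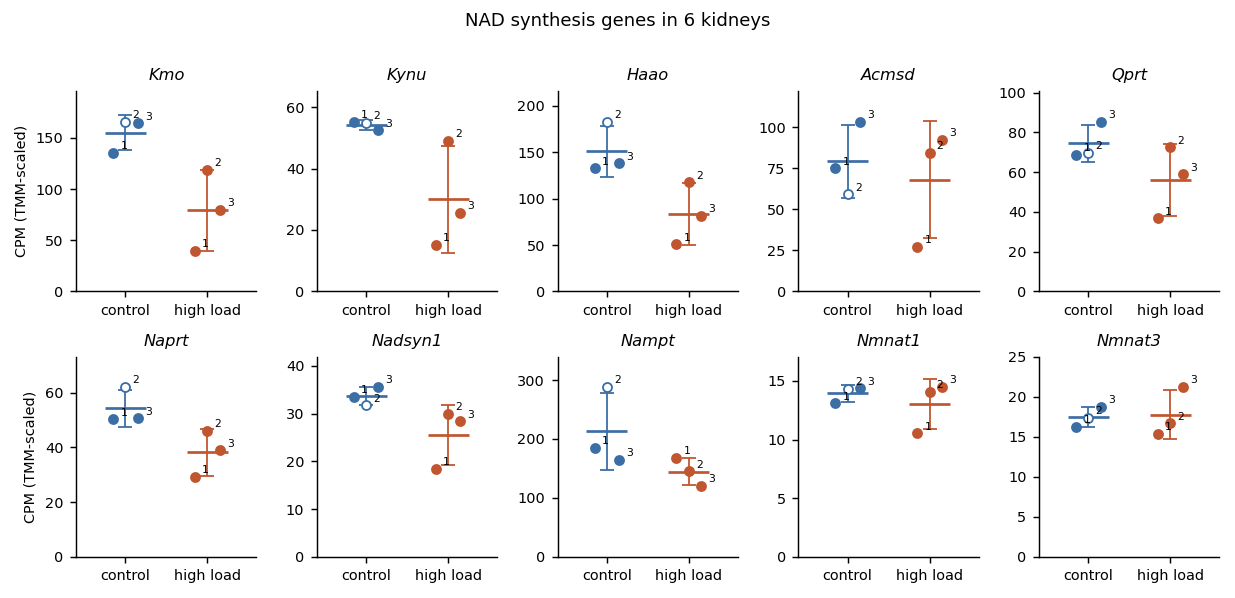
CPM (vertical axes from 0) of the 10 genes in each kidney, numbered by replicate, with the group mean as a bar and the SD (n = 3) as whiskers. The open circle is control 2, which holds Y-linked transcripts, and high-load 1 is the lowest point in 9 of 10 panels.

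Kmo, Kynu and Haao encode the successive enzymes that turn kynurenine into the precursor of quinolinic acid. Kmo, kynurenine 3-monooxygenase of the outer mitochondrial membrane (ENSMUSG00000039783, chr1:175620381-175662116, plus strand, mm10), stood at 135, 166 and 164 CPM across controls 1 to 3, against 39.5, 119 and 79.5 CPM in high-load 1 to 3. Every high-load value lay below the lowest control. The means were 155 ± 17.3 and 79.2 ± 39.6 CPM (SD, n = 3 each), so that the log2 fold change was -0.97 with SE 0.36 (edgeR unadjusted p 0.0338, adjusted p 0.176). Without control 2 it was -0.92 (edgeR adjusted p 0.344), and without high-load 1 it was -0.64.

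Kynu, kynureninase, which cleaves 3-hydroxykynurenine (ENSMUSG00000026866, chr2:43555329-43682715, plus strand), was at 55.2, 54.8 and 52.4 CPM across the controls, against 15.1, 49.0 and 25.7 CPM in high-load 1 to 3. The controls lay close together and the high-load kidneys far apart: among the 10 genes Kynu had the smallest coefficient of variation in controls (2.82%) and the largest in high-load kidneys (58.0%). The means were 54.2 ± 1.53 and 29.9 ± 17.3 CPM, so that the log2 fold change was -0.86 with SE 0.38 (edgeR adjusted p 0.227). Without high-load 2 it was -1.41 and Kynu passed the threshold as lower (edgeR adjusted p 0.0340, against 0.0340 to 0.403 over the alternatives tried), where 1.62% of genes were called lower. Without high-load 1 it was -0.53.

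Haao, the dioxygenase that opens the ring of 3-hydroxyanthranilate (ENSMUSG00000000673, chr17:83831156-83847963, minus strand), was at 133, 183 and 138 CPM across the controls, against 50.7, 118 and 81.8 CPM in high-load 1 to 3. Here too the groups did not overlap. The means were 151 ± 27.6 and 83.3 ± 33.5 CPM, so that the log2 fold change was -0.86 with SE 0.30 (edgeR unadjusted p 0.0261, adjusted p 0.161). It was -0.70 without control 2 and -0.60 without high-load 1. Haao was the single member called by DESeq2 (adjusted p 0.0456, against 0.0456 to 0.349 over the alternatives).

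The proportions of these 3 transcripts to each other were also taken inside each kidney. The ratio of Kmo to Kynu CPM was 2.45, 3.02 and 3.13 across the controls, against 2.61, 2.42 and 3.10 in high-load 1 to 3. The ratio of Kmo to Haao was 1.02, 0.905 and 1.19 across the controls, against 0.779, 1.01 and 0.973 in the high-load kidneys. Both ratios overlapped between the groups, though Kmo to Kynu in high-load 2 and Kmo to Haao in high-load 1 lay below the control range. Overlap was not particular to these genes. The ratio of Nmnat3 to Nmnat1 was 1.24, 1.21 and 1.30 across the controls, against 1.457, 1.185 and 1.465 in high-load 1 to 3, and overlapped too. High-load 1 and 2 carry the same labelled load of 75%, and high-load 2 held 3.01 times the Kmo, 3.24 times the Kynu and 2.32 times the Haao of high-load 1. The highest control exceeded the lowest control by 1.23, 1.05 and 1.38 times for these genes.

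Kmo and Haao share a short sequence near their transcription starts. It is shown because, of 10 motifs searched, it was the 1 with a match in the genes described here. Whether it has a part in their levels was not tested. The 30 bases around it, from the RefSeq promoter windows of GRCm38.p6 (the assembly of mm10) and read in the direction of each gene, are given with the shared letters in capitals.
Kmo (chr1:175632090-175632119, plus strand): gaggaagtgagCTTTGACCaaaccttgctt
Haao (chr17:83846833-83846862, minus strand): attgctcagctCTTTGACCtctggtaacct
The capitals are GGTCAAAG read on the opposite strand, the core of the direct repeat to which nuclear receptors such as HNF4A and PPARA bind. They begin 92 bases before the RefSeq start of Kmo and 61 bases before that of Haao. In GENCODE M21 the Kmo stretch overlaps exons of a coding, a retained-intron and a processed transcript of Kmo. The Haao stretch overlaps an exon of a retained-intron transcript of Haao. A window of 250 bases before to 50 after the start was at hand for 8 of the 10 genes, not for Kynu and Naprt. GGTCAAAG was found on either strand in 2 of these 8 genes and in 0.962% of all 32851 windows.

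The search covered 10 motifs in all, some of which overlap each other, on both strands. Those with 0 matches in the 8 genes included the E-box CACGTG (7.15% of windows). The HNF4 core CAAAGTCC (1.42%) and its second form CAAAGTTCA (0.390%) also had 0 matches, as had the direct repeat of AGGTCA with a base between (0.0396%). The rest were TGATGNAA (3.97%), TGATGCAA (0.895%), TGACGTCA (1.79%), TTATAA (5.79%) and the interferon response motif, GAAA repeated after 2 free bases (3.44%). A match is a string of letters, and whether any factor binds there was not measured.

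Acmsd and Qprt stand at the branch point after Haao. Qprt turns quinolinic acid into nicotinic acid mononucleotide and so into NAD, whereas Acmsd diverts the shared precursor from NAD synthesis toward full oxidation. Acmsd (ENSMUSG00000026348, chr1:127729413-127767978, plus strand) was at 75.0, 59.1 and 103 CPM across the controls, against 27.3, 84.5 and 92.4 CPM in the high-load kidneys. High-load 1 was the lowest of the 6 and the other 2 high-load kidneys lay within the control range. The means were 79.1 ± 22.4 and 68.1 ± 35.5 CPM, and the log2 fold change of -0.22 had a 95% interval from -1.28 to 0.85 (edgeR adjusted p 0.795). The direction turned without high-load 1 (0.16) and without control 3 (0.019).

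Qprt, quinolinate phosphoribosyltransferase (ENSMUSG00000030674, chr7:127107114-127122226, minus strand), was at 68.6, 69.6 and 85.4 CPM across the controls, against 36.7, 72.5 and 59.0 CPM in high-load 1 to 3. High-load 2 lay above controls 1 and 2, so the groups overlapped. The means were 74.5 ± 9.39 and 56.1 ± 18.1 CPM, so that the log2 fold change was -0.41 with SE 0.24 (edgeR adjusted p 0.335), and -0.18 without high-load 1. The ratio of Qprt to Acmsd was 0.915, 1.178 and 0.826 across the controls, against 1.34, 0.857 and 0.639 in the high-load kidneys, with no separation of the groups. The ratio of Haao to Acmsd was 1.77, 3.10 and 1.34 across the controls, against 1.86, 1.39 and 0.885 in the high-load kidneys, and overlapped as well.

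Naprt and Nadsyn1 are the first and last enzymes of the Preiss-Handler pathway. Naprt, which joins nicotinic acid to phosphoribose (ENSMUSG00000022574, chr15:75890956-75894481, minus strand), was at 50.4, 62.1 and 50.6 CPM across the controls, against 29.3, 46.1 and 39.0 CPM in the high-load kidneys, with no overlap. The means were 54.4 ± 6.70 and 38.2 ± 8.46 CPM, so that the log2 fold change was -0.51 with SE 0.18. Among the 10 genes this had the smallest unadjusted p (0.0250, edgeR adjusted p 0.159). It was -0.41 without control 2 and -0.35 without high-load 1. In the annotation 11.8% of the exon bases of Naprt overlap exons of Eef1d on the same strand, so reads there may have been given to either gene or to none.

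Nadsyn1, the glutamine-dependent NAD synthetase that also completes the de novo pathway (ENSMUSG00000031090, chr7:143795584-143822849, minus strand), was at 33.6, 31.8 and 35.6 CPM across the controls, against 18.4, 29.97 and 28.4 CPM in the high-load kidneys. Each high-load value was below each control, by little in high-load 2. The means were 33.6 ± 1.90 and 25.6 ± 6.28 CPM, so that the log2 fold change was -0.40 with SE 0.19 (edgeR adjusted p 0.243). Without high-load 1 it was -0.20.

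Nampt, the rate-limiting enzyme of nicotinamide salvage (ENSMUSG00000020572, chr12:32819545-32853349, plus strand), was at 185, 288 and 165 CPM across the controls, against 168, 145 and 121 CPM in high-load 1 to 3. Control 2 was far above the other controls, and high-load 1 lay above control 3. Nampt was the member whose lowest value was not in high-load 1. The means were 213 ± 65.9 and 145 ± 23.4 CPM, so that the log2 fold change was -0.56 with SE 0.24 (edgeR unadjusted p 0.0510, adjusted p 0.208). Without control 2, the library with Y-linked transcripts, the control mean was 175 CPM and the log2 fold change -0.28 (edgeR adjusted p 0.415).

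Nmnat1 and Nmnat3 encode isozymes of the step that every route shares, the joining of the mononucleotide to the adenylyl group of ATP. NMNAT1 is nuclear, and NMNAT3 is described as mitochondrial. Nmnat1 (ENSMUSG00000028992, chr4:149467572-149485202, minus strand) was at 13.1, 14.3 and 14.4 CPM across the controls, against 10.5, 14.1 and 14.5 CPM in the high-load kidneys. Only high-load 1 lay below the control range, and the means were 13.9 ± 0.734 and 13.0 ± 2.16 CPM. The log2 fold change of -0.099 had a 95% interval from -0.47 to 0.27 (edgeR adjusted p 0.727). It was 0.037 without high-load 1 and 0.0092 with library totals in place of TMM, a scaling under which the median of all genes moved from 0.0067 to 0.13.

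Nmnat3 (ENSMUSG00000032456, chr9:98287435-98420438, plus strand) was at 16.3, 17.4 and 18.7 CPM across the controls, against 15.4, 16.7 and 21.2 CPM in the high-load kidneys, with high-load 3 the highest of the 6. The means were 17.5 ± 1.25 and 17.7 ± 3.07 CPM. Its log2 fold change of 0.023 had a 95% interval from -0.33 to 0.38 (edgeR adjusted p 0.938). The direction turned without control 1 (-0.029) and without high-load 3 (-0.13). Nmnat2, the remaining isozyme, gave 36 counts in all and did not pass the filter.

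**Figure D2:**
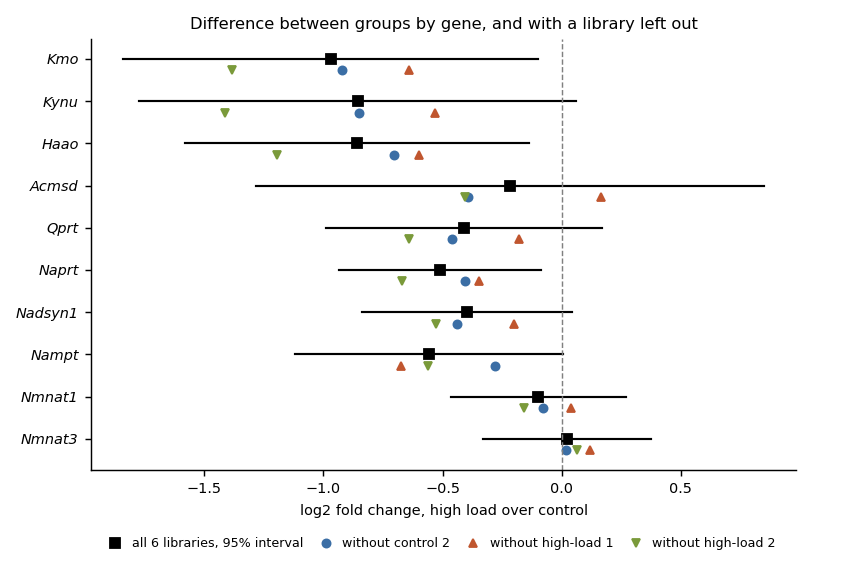
Log2 fold change of each gene, high load over control (horizontal axis), with its 95% interval as a line, and below it the value with control 2, high-load 1 or high-load 2 left out. Intervals of Kmo, Haao and Naprt lie below 0, and leaving out high-load 1 brings 9 of the 10 values upward, Nampt being the exception.

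Per length of transcript, the order of the genes within the controls depended on the length used. With all annotated exon bases, Nampt came first at 42.1 ± 13.1 CPM per kb, followed by Kmo (32.8 ± 3.66), Haao (32.3 ± 5.90), Qprt (28.2 ± 3.55), Acmsd (28.0 ± 7.90) and Naprt (23.2 ± 2.86). Each of these 6 overlapped its neighbour in the order over the 3 controls. Below them, without overlap between neighbours, came Nadsyn1 (10.2 ± 0.574), Kynu (8.81 ± 0.248), Nmnat1 (4.59 ± 0.242) and Nmnat3 (3.49 ± 0.249). With the longest coding transcript as the length, Haao came first at 109.6 ± 20.0 CPM per kb, clear of Nampt at 47.0 ± 14.6. The annotated exons of Haao, retained introns included, cover 4681 bases and its longest coding transcript 1381. Kynu then stood above Nadsyn1, and Nmnat3 above Nmnat1.

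In the high-load kidneys the order per exon kb was Nampt (28.6 ± 4.63), Acmsd (24.1 ± 12.6), Qprt (21.2 ± 6.83), Haao (17.8 ± 7.16), Kmo (16.8 ± 8.37) and Naprt (16.3 ± 3.61), all overlapping their neighbours. Kmo thus ranked 2 in controls and 5 under high load, and Acmsd ranked 5 and 2. With the longest coding transcript Kmo ranked 3 and 5, and Acmsd 5 and 4.

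The opening step of the de novo pathway, from tryptophan, was thinly represented. Tdo2, the dioxygenase of liver, had 71 counts over the 6 libraries (0.594 ± 0.320 and 0.685 ± 0.137 CPM, with overlap). Without control 2 the control mean of Tdo2 was 0.769 CPM, and its log2 fold change turned from 0.19 to -0.17. Ido1, the interferon-induced enzyme, had 33 counts and did not pass the filter. Ido2, a related enzyme of low activity on tryptophan, had 814 counts and stood highest of these 3, at 8.88, 10.7 and 10.7 CPM across the controls, against 3.45, 7.65 and 3.79 CPM in the high-load kidneys, with no overlap. Over all genes 15.8% were lower in this way. The log2 fold change of Ido2 was -1.02 with SE 0.32 (edgeR adjusted p 0.142, or 0.308 without control 2). It was called by DESeq2 (adjusted p 0.0335) and without high-load 2 (edgeR adjusted p 0.0257), the alternatives ranging from 0.0257 to 0.308. Per exon kb the control mean of Ido2 was 2.77 CPM, below each of the 10 genes.

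**Figure D3:**
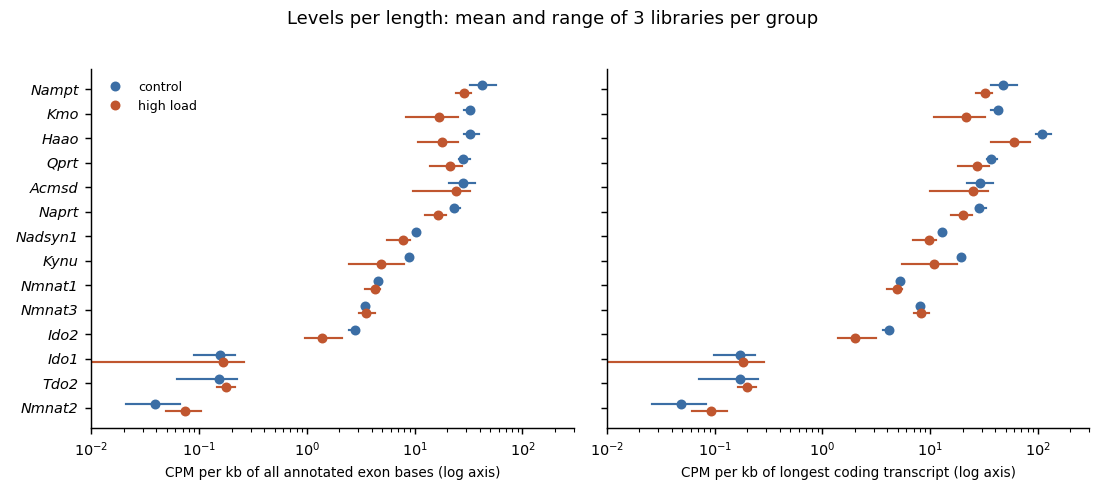
CPM per kb on log axes, per kb of all annotated exon bases (left) and of the longest coding transcript (right), as mean (point) and range of 3 libraries (line) per group, ordered by the left panel's controls. The 10 genes lie above Ido2, Ido1, Tdo2 and Nmnat2, and the line of Ido1 in high-load kidneys runs off the axis because high-load 2 had 0 counts.

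Proximal tubule markers were lower beside these genes. All 15 markers had a log2 fold change below 0 (49.1% of all genes; median -0.94), 9 were lower without overlap (15.8% of all genes), and 0 were called. Relative to the control mean, the mean log2 CPM of the 14 markers other than Slc7a13 was -0.0028, 0.087 and -0.084 across controls 1 to 3, against -1.85, -0.35 and -0.83 in high-load 1 to 3. Slc7a13 was left out here after its values were seen, because control 2 alone sets its control mean. On the same scale Kmo was at -1.97, -0.38 and -0.96 in high-load 1 to 3, Kynu at -1.83, -0.14 and -1.07, and Haao at -1.56, -0.35 and -0.87. In each of the 3 high-load kidneys Kmo differed from the marker mean by at most 0.13, whereas Kynu lay above it in high-load 2 and below it in high-load 3, and Haao above it in high-load 1. In bulk RNA, fewer cells of a type and less RNA per cell cannot be told apart. Other marker lists differed as well. Of 9 tubule injury markers 8 were higher without overlap (17.1% of all genes; median log2 fold change 1.69), and their mean log2 CPM relative to controls was 2.50, 1.03 and 2.03 in high-load 1 to 3. Markers of the thick ascending limb, distal tubule and collecting duct went in both directions (median -0.55). Of these 10, 5 were lower (15.8% of all genes) and 1 higher (17.1%) without overlap. At an unadjusted p under 0.05 in edgeR's test, 3 were lower (10.2% of all genes) and 3 higher (14%). Lymphocyte markers stood at 2.35, 1.12 and 0.16 relative to controls, with a control range from -0.71 to 0.54. Podocyte and endothelial markers stood at -0.99, 0.14 and -0.22 in high-load 1 to 3, with a control range from -0.18 to 0.12. None of these lists had a called gene.

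Expressed relative to the marker mean, Kmo was within the control range in 3 of 3 high-load kidneys (-0.11, -0.034 and -0.13, against -0.19 to 0.17 in controls). Kynu was at 0.019, 0.20 and -0.25 against -0.069 to 0.037, and Haao at 0.29, -0.0015 and -0.044 against -0.17 to 0.20. Kynu thus left its control range in high-load 2 and 3, upward and downward, and Haao in high-load 1, upward. Qprt, Naprt, Nadsyn1, Nmnat1 and Nmnat3 lay above every control relative to the markers, as 73.2% of all genes did. For Nmnat3 the values ran from 0.28 in high-load 2 to 1.67 in high-load 1. In high-load 1 to 3 Nadsyn1 stood at 0.99, 0.18 and 0.59, and Qprt at 0.84, 0.31 and 0.50. Acmsd and Nampt overlapped the controls. The same 5 genes lay above controls 1 and 3 alone, and with Slc7a13 kept in the list Haao joined them. The part of the marker differences in these results was not tested.

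**Figure D4:**
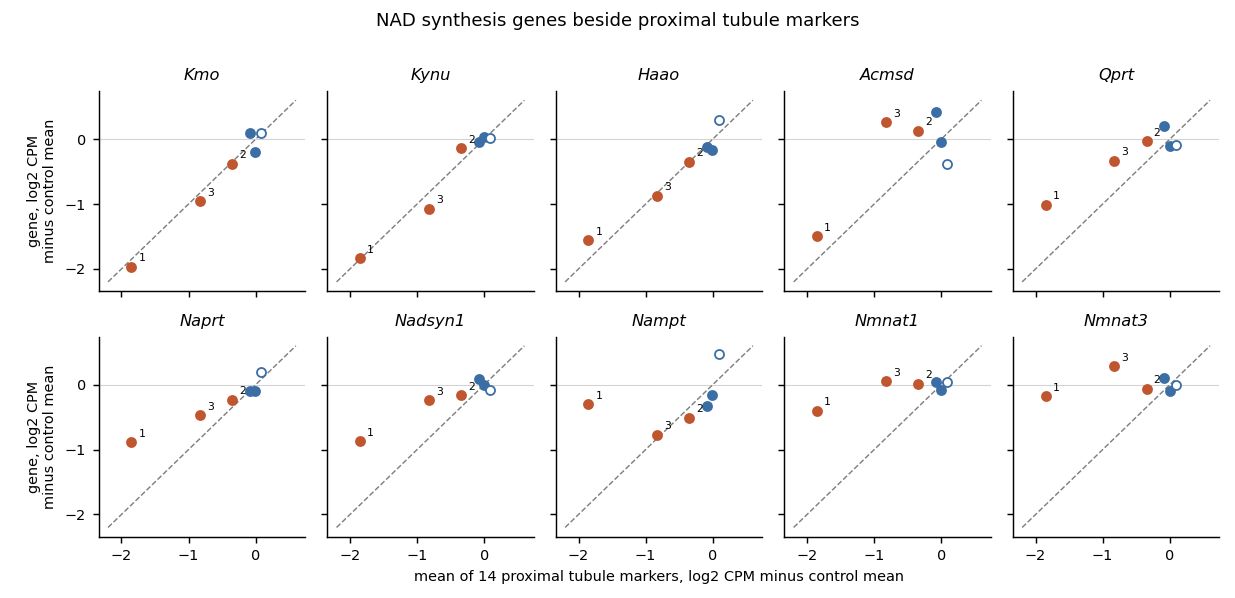
Log2 CPM of each gene against the mean of 14 proximal tubule markers, both relative to the control mean, for controls (blue, control 2 open) and high-load kidneys (orange, numbered). The dashed line marks equal differences: Kmo lies within 0.13 of it in all 3 high-load kidneys, and Nmnat1 and Nmnat3 lie closer to 0 on the vertical axis.

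Kmo, Kynu and Nampt are also expressed by macrophages. Macrophage and dendritic cell markers were higher in all high-load kidneys for 11 of 12 genes, beside 17.1% of all genes higher in this way, with 0 called. Their mean log2 CPM relative to controls was 1.35, 0.63 and 0.79 in high-load 1 to 3. Kmo and Kynu were lowest in high-load 1, where these markers were highest. Nampt was at 168 CPM there, the highest of the 3 high-load kidneys. Whether macrophages have a part in the values of Kmo, Kynu or Nampt was not tested.

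The remaining genes of NAD metabolism were taken as 6 lists, and 0 of their 53 tested members were called in edgeR's test. DESeq2 called 12 of the 53, of which 8 were lower (3.88% of all genes) and 4 higher (6.67%). Leaving out high-load 2, edgeR called Ido2, Nudt12 and Ppara as lower (1.62% of all genes) and Slc7a5 as higher (3.34%). Of 9 other NAD synthesis enzymes 5 were tested, and 3 of them were lower at an unadjusted p under 0.05 (10.2% of all genes) with 0 higher. These were Ido2, Nmrk1 and Afmid. Nmrk1, the kinase that makes NMN from nicotinamide riboside, was at 98.8, 107 and 84.4 CPM across controls, against 40.6, 72.3 and 71.1 CPM in high-load kidneys, with no overlap (log2 fold change -0.66, edgeR adjusted p 0.160). Over all genes 15.8% were lower without overlap. Afmid, the formamidase ahead of Kmo, was at 61.8 ± 24.9 and 34.6 ± 12.2 CPM, with overlap. Leaving out control 2 brought its control mean to 47.6 CPM and its log2 fold change from -0.84 to -0.46. Exons of other genes, mainly the predicted gene Gm20708 on its strand, overlap 46.6% of its exon bases. Nmrk2 had 0 counts in each library, which allows up to 0.142 to 0.182 CPM (3 counts, counting error only).

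Enzymes that draw kynurenine into side products were lower in value for 4 of 4 genes (49.1% of all genes; median log2 fold change -0.52). Kyat1, a kynurenine aminotransferase, was at 77.4, 89.6 and 74.6 CPM across controls, against 53.5, 66.5 and 57.0 CPM under high load (log2 fold change -0.45, edgeR adjusted p 0.117). Its groups did not overlap (15.8% of all genes were lower in this way). Kyat3 was at 163 ± 76.4 and 109 ± 48.0 CPM and Got2 at 354 ± 48.9 and 291 ± 46.9 CPM, both with overlap. Without control 2 the Kyat3 control mean was 206 CPM and its groups did not overlap (20.9% of all genes were lower in this way). The log2 fold change of Got2 was -0.28, or -0.17 without control 2. Aadat, named after its values were seen, was at 2436, 351 and 3453 CPM across controls, against 327, 1928 and 1294 CPM under high load. Its log2 fold change was -0.81 (edgeR adjusted p 0.602). All high-load values lay below controls 1 and 3, as for 20.9% of all genes, and control 2 lay within the high-load range.

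Of 10 genes of NAD phosphorylation, transport, repair and removal, 2 were lower (10.2% of all genes) and 1 higher (14%) at an unadjusted p under 0.05 (median log2 fold change -0.089). Nudt12, a peroxisomal hydrolase of NADH, was at 48.9, 69.8 and 49.6 CPM across controls, against 25.3, 34.2 and 30.8 CPM under high load (log2 fold change -0.90, edgeR adjusted p 0.0951). Nadk2, the mitochondrial NAD kinase, was at 88.6 ± 17.8 and 55.5 ± 7.95 CPM (log2 fold change -0.68, edgeR adjusted p 0.114). Nnmt, which methylates nicotinamide for excretion, was at 2.29 ± 0.374 and 3.74 ± 0.715 CPM (log2 fold change 0.70, edgeR adjusted p 0.163). None of these 3, picked for the smallest unadjusted p of their list, overlapped between groups (15.8% of all genes were lower and 17.1% higher in this way). Without control 2 the log2 fold change was -0.71 for Nudt12 and -0.50 for Nadk2.

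Among 19 NAD-consuming enzymes the median log2 fold change was 0.014, with 4 higher (14% of all genes were higher in this way) and 2 lower (10.2%) at an unadjusted p under 0.05. The highest by fold change was Parp14, a mono-ADP-ribosyltransferase induced by interferon, at 31.0, 26.7 and 34.0 CPM across controls, against 76.8, 55.5 and 44.8 CPM under high load (log2 fold change 0.95, edgeR adjusted p 0.0984). Its partner in the interferon response, Parp9, was at 24.1 ± 1.46 and 40.7 ± 9.62 CPM (edgeR adjusted p 0.102), and exons of Dtx3l on the opposite strand overlap 9.40% of its exon bases. Parp3, which acts at DNA breaks, was at 38.4 ± 1.63 and 50.8 ± 2.84 CPM (edgeR adjusted p 0.0955). Parp1, the main PARP of DNA repair, was at 47.5 to 51.8 CPM across controls and 44.9 to 52.6 CPM under high load (named after its values were seen).

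The remaining 3 at an unadjusted p under 0.05 were also named after their values were seen. Cd38, a membrane NAD hydrolase of immune cells, was at 19.3, 16.5 and 20.8 CPM across controls, against 38.5, 24.8 and 21.6 CPM in high-load kidneys (edgeR adjusted p 0.184). Bst1, a related hydrolase, was at 18.4 ± 4.24 and 10.1 ± 4.41 CPM (edgeR adjusted p 0.175), with a log2 fold change of -0.86, or -0.66 without control 2. Sirt3, the mitochondrial deacetylase, was at 78.7 ± 14.1 and 52.6 ± 15.4 CPM (edgeR adjusted p 0.202), with a log2 fold change of -0.58, or -0.43 without control 2. Of its exon bases 12.7% overlap other genes.

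Carriers of precursors differed in direction. Slc7a5, which carries tryptophan and other large amino acids, was at 7.38, 8.26 and 5.94 CPM across controls, against 25.8, 14.9 and 18.1 CPM under high load (log2 fold change 1.45, SE 0.24, edgeR adjusted p 0.0936). Slc5a8, which carries nicotinate and short monocarboxylates, was at 100.2, 201 and 118 CPM across controls, against 40.1, 69.5 and 47.2 CPM under high load (log2 fold change -1.42, SE 0.32, edgeR adjusted p 0.0999). Nt5e, the ectonucleotidase that removes phosphate from NMN outside the cell, was at 82.4 ± 14.2 and 49.5 ± 7.93 CPM (edgeR adjusted p 0.102). The log2 fold change of Nt5e was -0.74, or -0.59 without control 2. Groups did not overlap for these 3, which were picked for the smallest unadjusted p of their list. Over all genes 15.8% were lower and 17.1% higher in this way. For the list of 10 the median log2 fold change was -0.17, with 6 values below 0 (49.1% of all genes) and 4 above. Slc6a19 and Slc7a8 of the same list, named after their values were seen, stood at higher levels than Slc7a5 and overlapped between groups. Slc6a19 was at 236 ± 48.4 CPM in controls and 172 ± 89.2 CPM under high load. Slc7a8 was at 195 ± 52.65 and 197 ± 96.2 CPM. Without control 2 the control mean of Slc5a8 was 109.2 CPM and its log2 fold change -1.07 (edgeR adjusted p 0.260).

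Of 5 transcriptional regulators linked to NAD synthesis, 2 were lower at an unadjusted p under 0.05 (10.2% of all genes), both nuclear receptors of the differentiated tubule (median log2 fold change of the list -0.21). Hnf4a was at 576, 757 and 713 CPM across controls, against 251, 518 and 386 CPM under high load (log2 fold change -0.83, edgeR adjusted p 0.152, or 0.325 without control 2). Ppara was at 32.8, 44.2 and 24.4 CPM across controls, against 12.5, 17.8 and 11.6 CPM under high load (log2 fold change -1.28, edgeR adjusted p 0.0967, and -1.04 without control 2). The groups did not overlap for either gene (15.8% of all genes were lower in this way), and both were picked for a small unadjusted p. Ppargc1a, a coactivator known to raise de novo NAD synthesis in kidney, was at 84.3 ± 12.7 and 72.9 ± 7.74 CPM with overlap (edgeR adjusted p 0.372). Its log2 fold change was -0.21, and -0.082 without control 2.

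**Figure D5:**
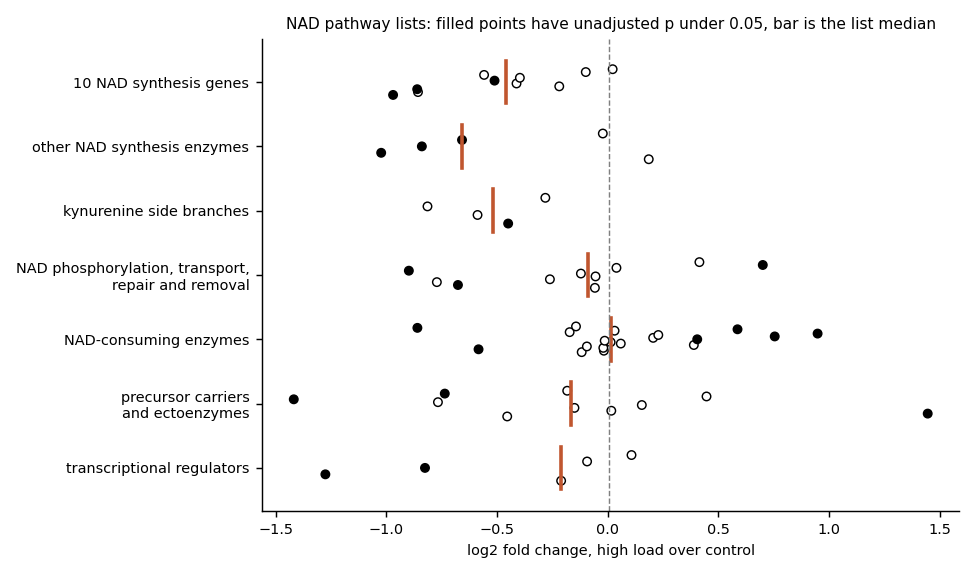
Log2 fold change, high load over control (horizontal axis), of each tested gene in the 10 NAD synthesis genes and in 6 further lists, filled where the unadjusted p is under 0.05, with list medians as orange bars and the median of all genes as a dashed line. The synthesis enzymes and side branches have medians of -0.46 to -0.66, and the consuming enzymes one of 0.014.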

How the data were processed

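Per the labels, kidney RNA was purified with TRIzol, turned into TruSeq RNA libraries and read in pairs on a DNBSEQ machine. The authors deposited raw counts for each Ensembl gene and kidney. The tools in the submitters' processing notes are featureCounts 2.0.1, SAMtools 1.11, HISAT2 2.2.1, fastp 0.23.2 and edgeR, and the build is mm10. For annotation, strand and multiply matching reads the setting is not stated, so overlapping genes have uncertain counts.

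Groups came from the titles, loads from the genotype labels. Each library has a mouse code of its own and was treated as a separate animal. Within groups, chi-square per degree of freedom between libraries was 20.0 to 93.1, so none is a repeat of another. Symbols, positions and lengths came from GENCODE M21 (mm10).

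Genes passing filterByExpr (minimum count 10; 15955 genes) were tested between groups with the two-sided, robust quasi-likelihood test of edgeR 4.0.16 (R 4.3.3) after TMM scaling, and p-values were adjusted by Benjamini-Hochberg. SEs were derived from the F statistic. An exact permutation of 3 against 3 cannot give p below 0.1, so none was used. Log2 CPM per library used a prior count of 2. Alternatives included DESeq2 1.42.0 and limma-voom (limma 3.58.1). The members and lists were chosen with earlier results of these data known. Named genes are the 10 members, the 3 genes with the smallest unadjusted p in each of 6 lists, and Tdo2, Ido1, Ido2 and Nmnat2. A further regulator was left out of its list and is not reported here.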

Additional observations from a re-analysis of the deposited data

How the results depend on the processing

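Over all genes, edgeR called 3, and 50 without a filter on low counts, 1698 with DESeq2, 0 with limma-voom, 1 with the replicate block, 10 with mutation load as a number, and 0 to 807 with 1 library left out. Of the 10 NAD synthesis genes, 0 were called, or 1 with DESeq2, and 0 to 1 with 1 library left out. At an unadjusted p under 0.05, 3 were lower, 5 with the replicate block, DESeq2 or no filter, 6 when high-load 2 was left out, and 0 when control 2 or high-load 3 was. Over all genes the number lower at that level was 1628, or 1618 with the replicate block, 1837 with DESeq2 and 1758 with no filter. It was 2148 without high-load 2, 1023 without control 2 and 1002 without high-load 3. Their median of -0.46 ranged from -0.28 without high-load 1 to -0.60 without high-load 2. The replicate numbers do not pair the samples: same-numbered libraries had deviations that correlated at 0.124, -0.182 and 0.0492. Control 2 deviated most like high-load 1 (0.122), and the largest correlation was between control 3 and high-load 2 (0.313).

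For 28 named genes, 424 of 448 values kept their direction and side of the threshold. A further 18 passed it, 13 under DESeq2 and 5 without high-load 2. The 6 that turned were Acmsd (0.019 without control 3, 0.16 without high-load 1, the range without 1 library being -0.50 to 0.16), Nmnat1 (0.0092 with library totals, 0.037 without high-load 1) and Nmnat3 (-0.029 without control 1, -0.13 without high-load 3, the range being -0.13 to 0.12). The cause was not tested.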

Other observations

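Nnt, the transhydrogenase that makes NADPH from NADH in the inner mitochondrial membrane, is annotated under 2 gene IDs. The first had 30, 51 and 31 counts across controls 1 to 3, against 25, 25 and 22 across high-load 1 to 3, or 2.15 ± 0.821 and 1.25 ± 0.0916 CPM (n = 3 each). The second had 0 counts in every library. In the annotation 100% of the exon bases of the second ID overlap exons of the first on the same strand. For the first ID 47.4% of its exon bases are shared in this way. How reads in shared exons were assigned is not stated, so the counts of both IDs are uncertain. The part of this overlap in the Nnt counts was not tested. Nadk2, the mitochondrial kinase that makes NADP, stood at 88.6 CPM in the controls. The C57BL/6J strain is known to carry a deletion in Nnt, and no source used here states the strain of these mice. Nnt was named after its values were seen.

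The mitochondrial NAD carrier Slc25a51, also named after its values were seen, was at 230.1 ± 9.14 CPM across controls, against 192 ± 31.5 CPM under high load. Its log2 fold change was -0.26 (edgeR adjusted p 0.304). The groups did not overlap (15.8% of all genes were lower in this way), by little between control 1 (221 CPM) and high-load 2 (216 CPM).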
